A study of Mus musculus with 10 samples.

Results

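Transcripts of 6 families of RNA-binding proteins were followed in microglia sorted from the retinas of diabetic and control mice. Many of these proteins regulate splicing. The members were taken by name from the deposited gene count table: every protein-coding gene called Srsf with a number (Srsf2 left out), Tra2a or Tra2b, Hnrnp followed by any letters, Rbm with a number and an optional a or b, Mbnl1 to Mbnl3 and Celf1 to Celf6. This gave 76 of 55487 genes, of which 10 were SR, 2 Tra2, 20 hnRNP, 35 RBM, 3 MBNL and 6 CELF genes. The name alone decided membership, and no measured value was used. A name does not show that a gene acts in splicing, above all for the 35 RBM genes. Below, "splicing regulators" is therefore only a name for the list. All animals were Cx3cr1GFP/+, with green fluorescent protein (GFP) in place of one copy of the fractalkine receptor gene, so every group lacks one working copy of that gene. The libraries came from mice 8 weeks after streptozotocin (8wk STZ, n = 4), mice 4 weeks after it (4wk STZ, n = 3) and littermates without it (Control, n = 3). Streptozotocin kills the insulin-producing cells of the pancreas and makes mice diabetic. The retinas of each animal were pooled, and live GFP-positive cells were sorted, a gate that can also hold other myeloid cells that express Cx3cr1. The labels give no age, sex or batch, and one Control set serves both times, so time after streptozotocin and age cannot be told apart, and comparisons with Control share their Control libraries. Each library is a separate animal, and p-values measure the spread between animals.

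SR proteins bind exonic enhancers through RNA recognition motifs and recruit the spliceosome through domains rich in arginine and serine, and Tra2 proteins work beside them. hnRNP proteins coat nascent transcripts and often repress exons, while MBNL and CELF proteins set developmental splicing programmes in muscle and brain, frequently in opposite directions. Many SR, Tra2 and hnRNP genes limit their own output: their proteins promote the inclusion of a "poison" exon or another splice form that sends the transcript to nonsense-mediated decay (NMD), so that total reads of a gene need not follow its protein.

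Library totals were 46143178 to 62903489 reads in 8wk STZ, 33266838 to 49051036 in 4wk STZ and 45656309 to 54312248 in Control. All 12 microglial markers were tested and took 4.30 to 4.55% of reads in 8wk STZ, 4.12 to 4.69% in 4wk STZ and 4.73 to 4.99% in Control. Of these markers, 4 fell and 1 rose in 8wk STZ against Control, with a median log2 fold change of -0.297. Markers of rod photoreceptors, the most numerous cells of the mouse retina, took 0.304 to 0.443% of reads in 8wk STZ, 0.463 to 0.656% in 4wk STZ and 0.908 to 1.04% in Control, and all 16 fell in 8wk STZ against Control. The 16 markers of Mueller glia and astrocytes took 0.621 to 2.10%, 0.347 to 0.631% and 0.282 to 0.580% in the same groups, higher in each 8wk STZ library than in Control, although 6 of them fell in 8wk STZ against Control, none rose and their median log2 fold change was -1.09. Most of that sum was Apoe, a lipid carrier that microglia also make, with 0.537 to 2.02%, 0.235 to 0.498% and 0.185 to 0.441% of reads (adjusted p = 0.0747 for 8wk STZ against Control). The 20 markers of amacrine, horizontal and ganglion cells and synapses took 0.00878 to 0.0118%, 0.0184 to 0.0213% and 0.0201 to 0.0216%. Mitochondrially encoded transcripts took 0.926 to 1.35%, 1.82 to 2.63% and 1.84 to 2.13% in the same groups, and 24343 to 25131, 23171 to 23512 and 22853 to 23440 genes were detected. The part of these differences in the values below was not tested. On the first 2 principal components the libraries that stood off from the rest were 4wk STZ 3 and Control 3, and results that rest on them are also given without them. In bulk libraries fewer cells of a type and less RNA per cell cannot be told apart.

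The 76 members took 0.677, 0.79, 0.702 and 0.697% of reads in the 8wk STZ libraries, 0.689, 0.69 and 0.734% in the 4wk STZ libraries and 0.661, 0.644 and 0.641% in the Control libraries. All 7 STZ libraries were above the 3 Control libraries, with 8wk STZ 2 the highest. These are shares of library totals, without the TMM scaling factors used below. Those factors ran from 1.00 to 1.08 in 8wk STZ and from 0.947 to 0.984 in Control. On the TMM scale the members' summed levels in 8wk STZ and Control overlapped, so this order depends on the scaling. After a filter on low counts 70 members were tested: 9 SR, 2 Tra2, 20 hnRNP, 32 RBM, 2 MBNL and 5 CELF genes.

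Levels were compared between genes per kilobase of exonic sequence (RPKM, from CPM on the TMM scale). Exonic sequence joined the exons of all annotated transcripts, those with retained introns among them. The order of genes therefore depends on the annotation, and genes with many such transcripts can be placed too low. Hnrnpk, a poly(C)-binding hnRNP, was the highest at 138 ± 9.38 RPKM in 8wk STZ, 170 ± 24.7 in 4wk STZ and 156 ± 8.84 in Control (SD). Hnrnpa2b1, which also sorts RNAs into granules and exosomes, came next at 79.2 ± 6.91, 80.5 ± 6.51 and 70.2 ± 9.45 RPKM in the same groups. The lowest Hnrnpk library stood above the highest Hnrnpa2b1 library. Srsf5, an SR protein gene, ranked just below Hnrnpf, a G-tract-binding hnRNP, over all libraries, but its RPKM level depended on the group, at 59.1 ± 9.37 in 8wk STZ, 31.8 ± 9.78 in 4wk STZ and 36.6 ± 5.97 in Control. In 8wk STZ its mean lay above that of Hnrnpf (46.9 ± 3.85), whereas in 4wk STZ (52.3 ± 1.19) and Control (45.8 ± 5.45) Hnrnpf was higher. Below these, Hnrnpa1, Mbnl1, Hnrnpc and Srsf9 averaged 40.8, 40.6, 33.7 and 33.2 RPKM over the 10 libraries. Hnrnpa1 and Mbnl1 differed by less than their SD within each group, as did Hnrnpc and Srsf9.

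**Figure D1:**
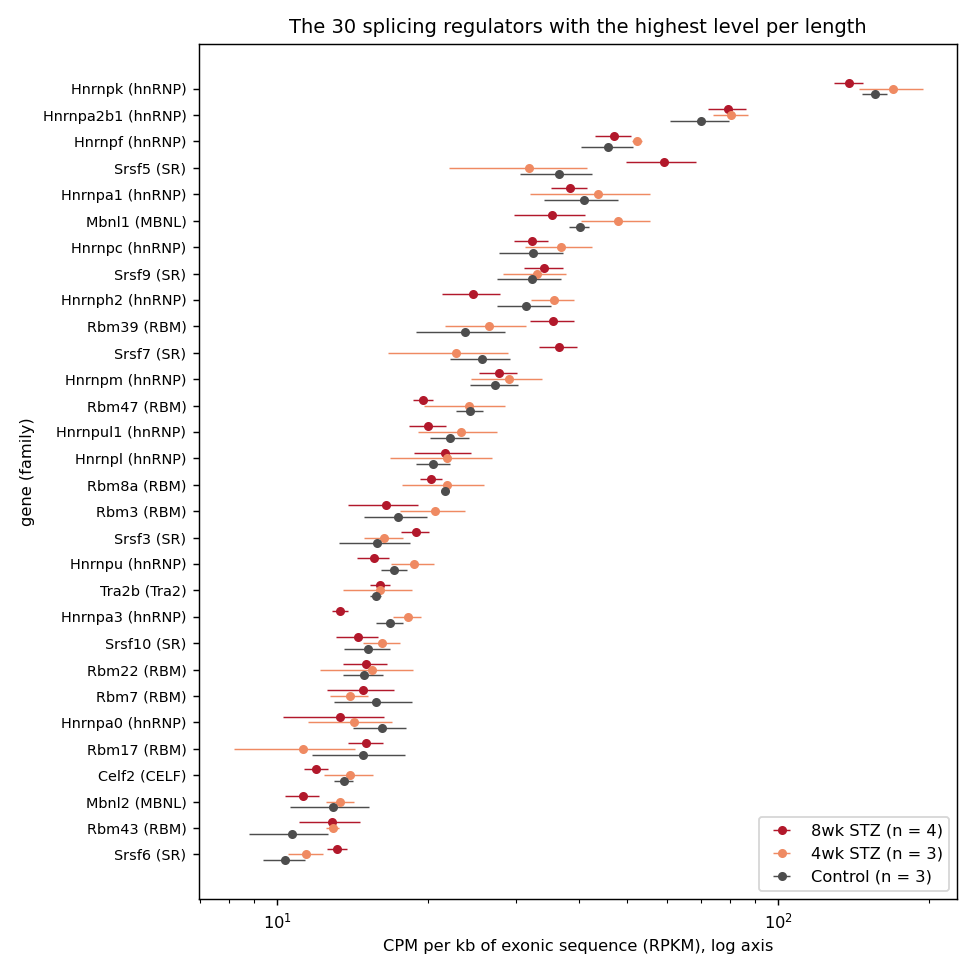
Level per kilobase of exonic sequence (RPKM, log axis) of the 30 highest members, as the mean (point) and SD (bar) of 8wk STZ (n = 4), 4wk STZ (n = 3) and Control (n = 3). Hnrnpk stands at the top at 138, 170 and 156 RPKM, and the 3 groups lie close together for most genes, with Srsf5, Srsf7 and Rbm39 among those where 8wk STZ lies to the right.

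By family, summed CPM (reads scaled to a common library size, TMM scale) of the SR genes was higher in each 8wk STZ library than in any 4wk STZ or Control library. The 10 SR genes summed to 810, 944, 908 and 901 CPM in 8wk STZ, 712, 720 and 668 in 4wk STZ and 690, 674 and 678 in Control, and the lowest 8wk STZ library was above every other. The 35 RBM genes summed to 1543 ± 86.5 CPM in 8wk STZ, 1389 ± 29.0 in 4wk STZ and 1363 ± 60.8 in Control. All 8wk STZ libraries were above the highest of the rest (1421 CPM, 4wk STZ 3), but 8wk STZ 1 only just, at 1432 CPM. The 20 hnRNP genes summed to 3052 ± 104, 3405 ± 199 and 3140 ± 109 CPM, and each 4wk STZ library (3288 to 3635 CPM) was above every 8wk STZ (at most 3174) and Control (at most 3222) library, while the 8wk STZ and Control libraries overlapped. The MBNL sums were 798 ± 109 CPM in 8wk STZ, 1056 ± 135 in 4wk STZ and 906 ± 57.7 in Control, nearly all of it Mbnl1 and Mbnl2, and again each 4wk STZ library (970 CPM or more) was above the rest (956 CPM or less). The CELF sums were 417 ± 18.6, 473 ± 41.1 and 448 ± 27.4 CPM and the Tra2 sums 181 ± 9.33, 172 ± 29.4 and 168 ± 3.90 CPM, in the same group order. Sums follow the most abundant genes of a family. They were taken on the TMM scale only, so a narrow gap between groups may not hold under another scaling. No p-value was computed for them.

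**Figure D2:**
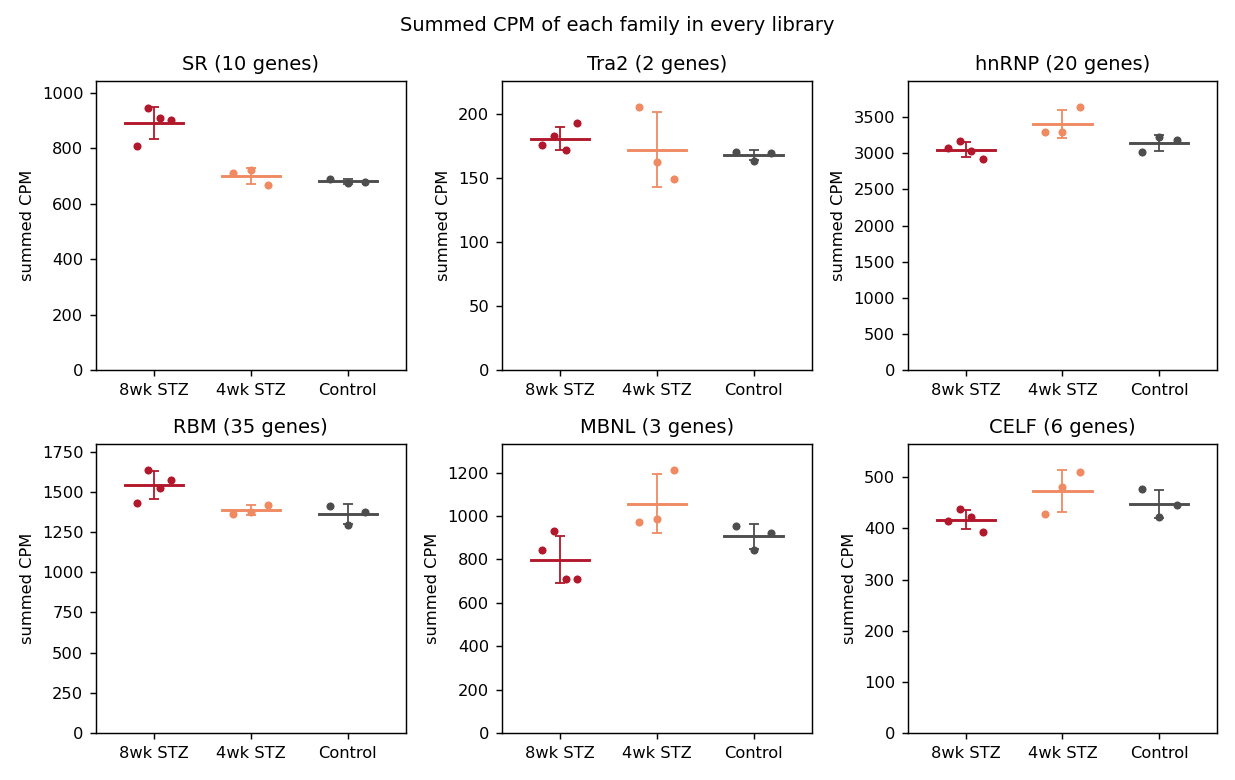
Summed CPM of each family in every library (points), with the group mean (line) and SD (bar), for 8wk STZ (n = 4), 4wk STZ (n = 3) and Control (n = 3), each axis starting at 0. The 8wk STZ points of the SR panel (810 to 944 CPM) lie above all points of 4wk STZ (668 to 720) and Control (674 to 690).

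The comparison of 8wk STZ with Control asked which members differed after the longer diabetes. One member, Hnrnpdl, rose, out of 70 tested (edgeR's quasi-likelihood test, adjusted p below 0.05), against 2.37% of the 18957 genes tested, 0.971% higher and 1.4% lower. A single call in 70 is 1.43%, no more than that background, so the count gives no result about the members as a group. The split of all calls depended on scaling: 41.0% were higher with TMM factors, 66.0% with library totals alone and 30.9% with upper-quartile scaling. At an unadjusted p below 0.05, 20 members (14 higher, 6 lower) stood beside 15.7% of all genes (8.42% higher, 7.24% lower), which is 28.6% of the members. The groups did not overlap for 15 members with 8wk STZ higher and 6 with it lower, against 8.91% and 7.99% of all genes. A stricter filter of 1 CPM in 3 libraries kept 68 members but only 14445 genes, so the background holds more genes at low counts. In no comparison were the members set against genes of like abundance, so these shares cannot show an excess particular to them. The median log2 fold change was 0.047 over the members (-0.00315 with upper-quartile scaling) and -0.00610 over all genes, and 40 of 70 members were above 0 (49.4% of all genes). Medians by family were 0.29 for SR (8 of 9 above 0), 0.29 for Tra2, 0.21 for RBM, -0.052 for hnRNP (0.051 with library totals), -0.19 for MBNL and -0.43 for CELF, and the other 5 kept their sign under the 3 other scalings. The CELF median was the value of Celf4, while the more abundant Celf2 and Celf1 were at -0.18 and 0.28.

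Hnrnpdl (ENSMUSG00000029328) encodes a relative of the AU-rich-element binder hnRNP D that acts in splicing and in the export and decay of mRNA. It had 56.2, 90.2, 70.0 and 59.6 CPM in 8wk STZ, 39.7, 36.3 and 28.9 in 4wk STZ, and 40.1, 37.8 and 29.9 in Control. Every 8wk STZ library was above every other library, while 4wk STZ and Control overlapped throughout. The log2 fold change was 0.94 (SE 0.191, adjusted p = 0.0301) for 8wk STZ against Control, -0.04 (adjusted p = 0.978) for 4wk STZ against Control and 0.98 (SE 0.192, adjusted p = 0.0439) for 8wk STZ against 4wk STZ. The call depended on single libraries. In the comparison with Control it was kept without 8wk STZ 1 (adjusted p = 0.0420) and lost without any other one library of the pair of groups, with adjusted p of 0.0620, 0.0745 and 0.106 without Control 1, 2 and 3 and of 0.0619, 0.0753 and 0.0542 without 8wk STZ 2, 3 and 4. Without 4wk STZ 1, 2 or 3 alone it was kept (adjusted p = 0.0396, 0.0457 and 0.0303), and without 4wk STZ 3 Rbm5 (adjusted p = 0.00724) and Srsf11 (adjusted p = 0.0202) were called as well. Between the STZ groups it was lost without any one of the 10 libraries (adjusted p = 0.0512 to 0.154), and without 4wk STZ 1 Hnrnph1 was called in its place (adjusted p = 0.0499). Without Control 3 and 4wk STZ 3 together the log2 fold change against Control was 0.83 (adjusted p = 0.0887), and the members called were Rbm25, Rbm5 and Srsf11 in its place, while none was called between the STZ groups.

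Promoters of 4 genes are shown: Hnrnpdl, and the 3 next by p-value whose 8wk STZ libraries all lay above Control. Each stretch runs 5′ to 3′ on the gene's strand, from 250 bases before to 50 after a RefSeq start (GRCm38.p6), 300 bases in all. Capitals mark matches, on either strand, to any of the TATA box (TATAAA), the CCAAT box (CCAAT), the GC box (GGGCGG), the E-box (CACGTG), an ETS site (CCGGAAG) and a cAMP response element core, CRE (TGACG). The coordinates are chr5:100039173-100039472 for Hnrnpdl, chr9:107770953-107771252 for Rbm5, chr2:156180189-156180488 for Rbm39 and chr3:158036557-158036856 for Srsf11, all on the minus strand. Rbm39 and Srsf11 have another RefSeq promoter that is not shown. In GENCODE vM21 the Hnrnpdl gene starts further upstream, at chr5:100039664, so its stretch lies wholly within the annotated gene.
Hnrnpdl: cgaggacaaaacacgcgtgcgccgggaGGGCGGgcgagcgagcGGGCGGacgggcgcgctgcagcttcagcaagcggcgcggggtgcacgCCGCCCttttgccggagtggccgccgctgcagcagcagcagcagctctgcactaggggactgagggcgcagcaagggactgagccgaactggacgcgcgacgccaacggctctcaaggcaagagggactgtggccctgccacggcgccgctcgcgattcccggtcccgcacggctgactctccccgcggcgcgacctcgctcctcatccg
Rbm5: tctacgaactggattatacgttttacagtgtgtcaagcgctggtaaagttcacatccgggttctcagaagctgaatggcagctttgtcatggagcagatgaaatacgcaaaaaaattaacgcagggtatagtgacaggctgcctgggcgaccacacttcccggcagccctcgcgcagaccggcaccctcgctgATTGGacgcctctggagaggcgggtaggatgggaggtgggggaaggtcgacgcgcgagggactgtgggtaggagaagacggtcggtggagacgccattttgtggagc
Rbm39: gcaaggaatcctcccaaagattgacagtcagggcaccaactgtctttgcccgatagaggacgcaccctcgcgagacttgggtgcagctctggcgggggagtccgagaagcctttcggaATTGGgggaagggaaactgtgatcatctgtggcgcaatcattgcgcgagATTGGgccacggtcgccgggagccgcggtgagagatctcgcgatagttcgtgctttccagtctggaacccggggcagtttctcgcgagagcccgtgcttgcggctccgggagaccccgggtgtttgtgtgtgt
Srsf11: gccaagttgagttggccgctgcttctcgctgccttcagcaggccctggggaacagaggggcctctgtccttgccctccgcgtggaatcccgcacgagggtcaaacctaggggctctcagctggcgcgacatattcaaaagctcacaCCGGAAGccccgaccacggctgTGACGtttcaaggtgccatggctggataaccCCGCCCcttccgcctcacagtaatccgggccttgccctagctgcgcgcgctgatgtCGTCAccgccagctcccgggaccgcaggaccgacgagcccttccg
The Hnrnpdl stretch held 3 GC boxes and none of the other motifs, at 72.7% GC. The Rbm5 and Rbm39 stretches held 1 and 2 CCAAT boxes only, and that of Srsf11 held 1 GC box, 1 ETS site and 2 CRE cores. Over 100 RefSeq promoters of 67 members that matched by name, 61% held a GC box, against 35.7% of 32851 promoters of the same length, and 44% held a CRE core, against 20.8%. CCAAT boxes were in 44% against 37.4%, ETS sites in 15% against 8.86%, E-boxes in 10% against 7.15% and TATA boxes in 12% against 13.6%. The members' promoters had a median GC content of 62%, against 52.7% for all. That background holds promoters of 27025 genes, whether expressed in these libraries or not. It therefore cannot show whether the members differ from other expressed genes. A match is a description of the letters and not evidence of binding.

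No SR gene was called in any comparison. Srsf5 had 181, 255, 264 and 242 CPM in 8wk STZ, 124, 89.5 and 167 in 4wk STZ and 127, 138 and 173 in Control. The lowest 8wk STZ library (8wk STZ 1) was just above the highest of the others, and 4wk STZ and Control overlapped. Its log2 fold change was 0.69 against Control (SE 0.21, adjusted p = 0.119) and 0.89 against 4wk STZ (adjusted p = 0.0764), neither passing. Srsf11, which carries a serine- and arginine-rich domain and helps define exons, had 101, 112, 98.8 and 121 CPM in 8wk STZ, 114, 111 and 68.7 in 4wk STZ and 65.1, 71.2 and 76.4 in Control. All 8wk STZ libraries were above all Control libraries, and 4wk STZ 3 alone of its group lay within the Control range. The log2 fold change was 0.61 for 8wk STZ against Control (adjusted p = 0.0908) and 0.47 for 4wk STZ against Control (adjusted p = 0.451).

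Srsf7, an SR protein with a zinc knuckle, had 126, 146, 124 and 122 CPM in 8wk STZ, 78.2, 104 and 60.4 in 4wk STZ and 90.8, 104 and 78.6 in Control. The 8wk STZ libraries lay above all others, with a log2 fold change of 0.51 against Control (adjusted p = 0.165) and 0.68 against 4wk STZ (adjusted p = 0.1). Srsf6 had 65.7, 65.9, 62.0 and 60.0 CPM in 8wk STZ, 59.2, 55.3 and 50.3 in 4wk STZ and 48.5, 55.1 and 45.8 in Control, again without overlap of 8wk STZ with either group (log2 fold change 0.35 against Control, adjusted p = 0.134). Srsf3, the smallest SR protein and an export adaptor, had 135 to 157 CPM in 8wk STZ, 118 to 141 in 4wk STZ and 112 to 148 in Control, and Srsf10, a splicing repressor when dephosphorylated, 91.3 to 112, 104 to 123 and 99.3 to 119. Both overlapped between all groups, with log2 fold changes of 0.26 and -0.07 for 8wk STZ against Control (adjusted p = 0.322 and 0.875). Srsf1, Srsf4 and Srsf9 had log2 fold changes of 0.29, 0.23 and 0.08 for 8wk STZ against Control, and Tra2a and Tra2b 0.55 (adjusted p = 0.255) and 0.03 (adjusted p = 0.957).

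Several RBM genes had values close to the threshold. Rbm5, an RNA-binding protein that acts at the early spliceosome and in apoptosis genes, had 162, 161, 170 and 168 CPM in 8wk STZ, 132, 124 and 70.7 in 4wk STZ and 112, 88.0 and 97.8 in Control. The 8wk STZ libraries were close to each other and above every other library (log2 fold change against Control 0.73, SE 0.19, adjusted p = 0.0701). Rbm25, a U1-associated regulator of 5′ splice site choice, had 119, 186, 151 and 157 CPM in 8wk STZ, 103, 111 and 118 in 4wk STZ and 84.8, 72.8 and 119 in Control. Control 3 overlapped 8wk STZ 1, and the log2 fold change against Control was 0.73 (adjusted p = 0.0674), or 0.96 without Control 3 (adjusted p = 0.0316). Rbm39, a U2AF-like coactivator, had 243, 267, 213 and 263 CPM in 8wk STZ, 211, 195 and 146 in 4wk STZ and 202, 140 and 151 in Control. The 8wk STZ libraries lay above all others, with 8wk STZ 3 close to 4wk STZ 1 (log2 fold change against Control 0.58, adjusted p = 0.0886).

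**Figure D3:**
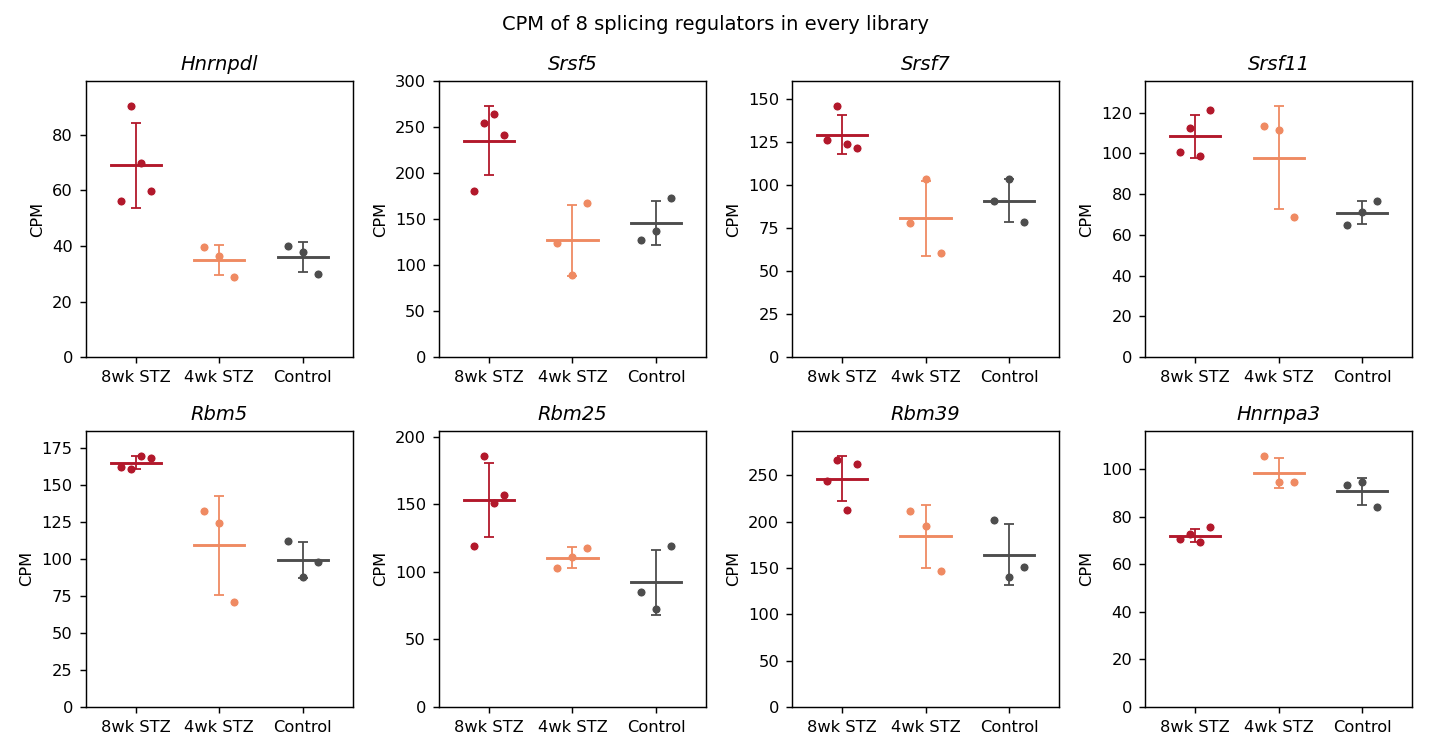
CPM of 8 splicing regulators in every library (points) with the group mean (line) and SD (bar), for 8wk STZ (n = 4), 4wk STZ (n = 3) and Control (n = 3), each axis starting at 0. Hnrnpdl is between 56.2 and 90.2 CPM in 8wk STZ and between 28.9 and 40.1 in the other libraries, and Hnrnpa3 is the one gene shown that is lower in 8wk STZ, at 69.5 to 75.5 CPM.

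Other members were lower in 8wk STZ. Hnrnpa3, an hnRNP of the A/B class, had 70.7, 72.5, 69.5 and 75.5 CPM in 8wk STZ, 106, 94.7 and 94.6 in 4wk STZ and 93.2, 94.5 and 84.1 in Control. All 8wk STZ libraries lay below all others. Its log2 fold change of -0.45 against 4wk STZ missed the threshold (adjusted p = 0.05, above the threshold before rounding), and against Control it was -0.33 (adjusted p = 0.0918). Hnrnph2, a G-tract-binding hnRNP, had 105, 128, 98.1 and 98.4 CPM in 8wk STZ, 151, 143 and 173 in 4wk STZ and 141, 118 and 151 in Control. Its paralog Hnrnph1 had the opposite order, at 54.2, 57.7, 71.1 and 57.1 CPM in 8wk STZ, 46.0, 30.7 and 28.7 in 4wk STZ and 40.7, 51.4 and 34.5 in Control. For 8wk STZ against 4wk STZ the log2 fold changes were -0.54 (adjusted p = 0.0778) for Hnrnph2 and 0.77 (adjusted p = 0.103) for Hnrnph1, and against Control -0.35 (adjusted p = 0.199) and 0.51 (adjusted p = 0.230). Both genes were apart from 4wk STZ in every library, and reads shared by such paralogs can be split by the counting. Rbm47, which binds AU-rich sites and works with the C-to-U editing enzyme APOBEC1, had 131 to 145 CPM in 8wk STZ, 144 to 207 in 4wk STZ and 162 to 183 in Control (log2 fold change against Control -0.31, adjusted p = 0.219).

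After 4 weeks the comparison with Control asked the same of the shorter diabetes. No member was called, and none of all genes was (0%, edgeR's quasi-likelihood test). At an unadjusted p below 0.05, 4 members (Celf1, Srsf11 and Rbm44 higher, Hnrnpab lower) stood beside 9.75% of all genes (4.78% higher, 4.97% lower), and DESeq2, the likelihood ratio test and limma-voom called 0 members, against 1.66%, 1.29% and 0% of all genes (with DESeq2, 1 member had no adjusted p). The groups did not overlap for 4 members with 4wk STZ higher and 2 with it lower, against 6.07% and 6.25% of all genes. The median log2 fold change was 0.062 over members and -0.00388 over all genes, with 45 of 70 members above 0 (49.6% of all genes), and family medians ran from 0.038 (RBM) to 0.15 (MBNL). Celf1, a regulator of splicing and of mRNA decay through GU-rich elements, had 85.5, 112 and 93.4 CPM in 4wk STZ and 88.5, 74.7 and 70.6 in Control, overlapping in 4wk STZ 1 and Control 1 (log2 fold change 0.32, adjusted p = 0.467). Hnrnpab had 10.3, 6.92 and 9.11 CPM in 4wk STZ and 15.8, 14.2 and 16.3 in Control, without overlap (log2 fold change -0.81, adjusted p = 0.378), and 29.1% of its exonic sequence overlaps Phykpl on the opposite strand, from which unstranded reads cannot be told apart. Mbnl1 had 798, 834 and 1056 CPM in 4wk STZ and 787, 719 and 747 in Control (log2 fold change 0.25, adjusted p = 0.619). Rbm17, Rbm34 and Hnrnpf had log2 fold changes of -0.40, -0.36 and 0.19 (adjusted p = 0.605, 0.640 and 0.631).

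Between the times, 8wk STZ against 4wk STZ called 1 of 70 members (Hnrnpdl, which rose), against 0.918% of all genes (0.396% higher, 0.522% lower). At an unadjusted p below 0.05, 18 members (10 higher, 8 lower) stood beside 13.7% of all genes (7.18% higher, 6.48% lower), and the groups did not overlap for 10 higher and 7 lower, against 8.39% and 6.97%. The median log2 fold change was 0.030 (-0.035 with upper-quartile scaling), against -0.000448 over all genes, and 36 of 70 members were above 0 (50% of all genes). Family medians were 0.21 for SR, 0.23 for Tra2, 0.14 for RBM, -0.098 for hnRNP, -0.22 for CELF and -0.34 for MBNL. Mbnl1, which promotes adult splice forms, had 706, 794, 563 and 589 CPM in 8wk STZ, below all 3 of the 4wk STZ libraries (798, 834 and 1056 CPM), with 8wk STZ 2 and 4wk STZ 1 close together (log2 fold change -0.43, adjusted p = 0.168). Mbnl2 had 139, 136, 145 and 120 CPM in 8wk STZ and 172, 153 and 155 in 4wk STZ, also without overlap (log2 fold change -0.25, adjusted p = 0.423). Celf2, a CELF gene also expressed outside neurons, had 305, 330, 316 and 289 CPM in 8wk STZ and 327, 351 and 407 in 4wk STZ (log2 fold change -0.22, adjusted p = 0.306).

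**Figure D4:**
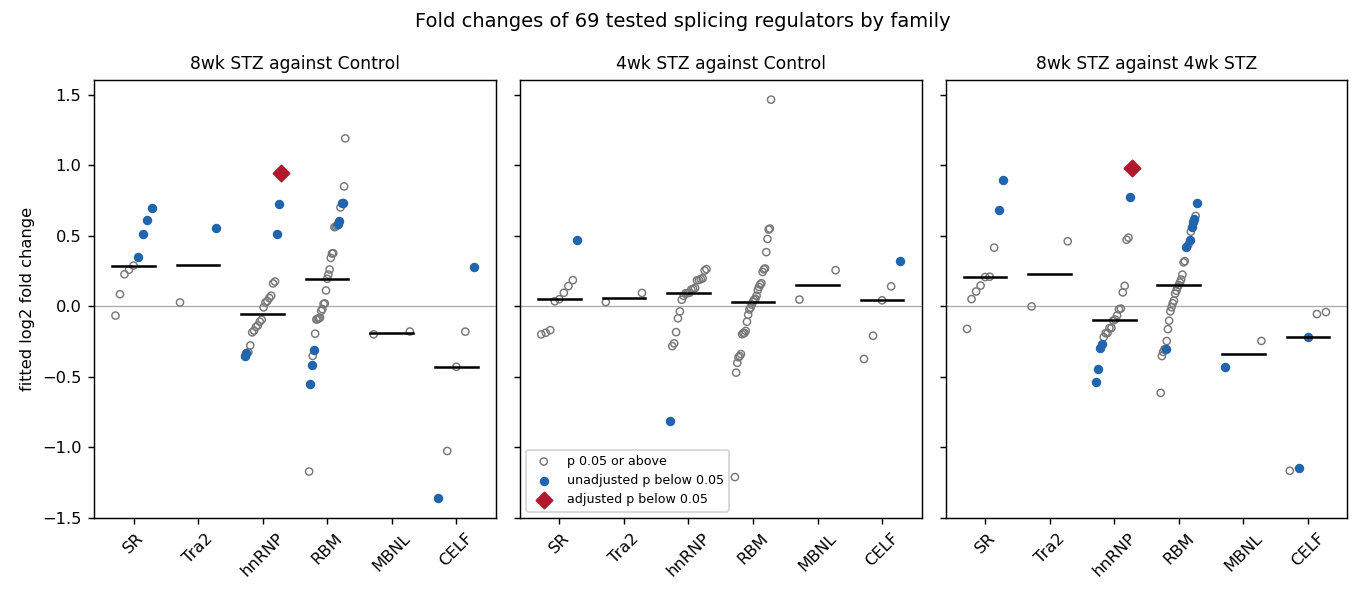
Fitted log2 fold changes of 69 of the 70 tested members by family in the 3 comparisons, with a black line at each family median. Filled diamonds mark adjusted p below 0.05 (Hnrnpdl at 0.94 and 0.98), filled circles unadjusted p below 0.05 and open circles the rest. Rbm44, which has almost no Control reads and a fitted value of 4.93 for 8wk STZ against Control, is left out of the plot and of its RBM line.

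The CELF genes best known from neurons were read beside retinal markers. Celf4 had 17.0, 12.9, 11.5 and 5.15 CPM in 8wk STZ, 15.0, 14.7 and 6.59 in 4wk STZ and 20.9, 10.6 and 15.6 in Control (log2 fold change for 8wk STZ against Control -0.43, adjusted p = 0.724). Celf3 had 0.920, 1.5, 0.517 and 0.940 CPM in 8wk STZ, 1.72, 2.07 and 2.67 in 4wk STZ and 3.05, 1.96 and 2.47 in Control. The 8wk STZ libraries were below all others (log2 fold change against Control -1.36, adjusted p = 0.180). The 20 markers of amacrine, horizontal and ganglion cells, 18 of them tested, took 0.00878 to 0.0118% of reads in 8wk STZ, 0.0184 to 0.0213% in 4wk STZ and 0.0201 to 0.0216% in Control, and Onecut1 and Pou4f2 failed the filter. Rod markers also took the smallest share in 8wk STZ, as given above, and the part of these cells' RNA in the Celf3 values was not tested. Celf6 rested on Control 3 and 4wk STZ 3 (0.837 and 1.03 CPM, against 0.321 CPM or less in the other 8). The cold-inducible Rbm3 had 63.7 to 93.6 CPM in 8wk STZ, 81.0 to 109 in 4wk STZ and 68.4 to 90.3 in Control, overlapping (log2 fold change against Control -0.08, adjusted p = 0.894).

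The 6 members that failed the filter had few reads. Summed over 8wk STZ, 4wk STZ and Control, Srsf12 had 26, 42 and 3 reads, Celf5 42, 13 and 124 reads and Mbnl3 49, 6 and 56 reads. For Celf5, Control 3 held 116 of the 124 Control reads, and for Mbnl3, 8wk STZ 4 held 47 and Control 2 held 54. Rbm24 had 2, 4 and 2 reads, Rbm11 4, 0 and 0, and Rbm46 0, 0 and 1. Rbm44, which passed the filter, had 157, 108 and 3 reads, with 1 read each in 8wk STZ 1 and 4wk STZ 3, and the ratio to Control was 35.8 in 8wk STZ (95% counting interval 12.0 to 176) and 40.4 in 4wk STZ (13.5 to 199). These intervals cover counting error only and leave out the spread between animals, and Rbm44 was called in neither comparison (adjusted p = 0.208 and 0.433).

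Annotation was compared after the values were seen, as a description. In GENCODE vM21 an NMD transcript was annotated for 35 of 70 tested members (50.0%), against 20.8% of 21951 protein-coding genes. For 52 tested members a retained-intron transcript was annotated (74.3%, against 41.5%). Those protein-coding genes were taken whether expressed in these libraries or not. Their median exonic length was 3498 bases, against 5897.5 for the tested members. This background therefore cannot show whether the members differ from other expressed genes of similar length. Of the 14 members higher in 8wk STZ than in Control at an unadjusted p below 0.05, 10 had an annotated NMD transcript, as had 25 of the 50 members that did not reach it and 0 of the 6 lower. A retained-intron transcript was annotated for 11 of those 14, 36 of those 50 and 5 of those 6. Gene counts do not separate these transcripts. Of the members, 11 share over 10% of their exonic sequence with another annotated gene, among them Rbm42 (75.4%, Gm21982), Rbm4 (60.5%, Gm21992) and Srsf4 (43.0%, Gm12992 on the opposite strand), and their counts are uncertain.

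Other genes of the pathway were read from 3 lists, which were chosen with earlier results of these data known. Of 20 kinases, phosphatases and partners that act on SR proteins, 5 rose in 8wk STZ against Control and none fell, beside 0.971% of all genes higher and 1.4% lower (median log2 fold change 0.29): Clk1, Clk4, Srpk1, Ccnl1 and Cdk11b. Clk4, a kinase of SR proteins in the nucleus, had 50.7 ± 5.40 CPM in 8wk STZ and 22.8 ± 3.07 in Control (log2 fold change 1.15, adjusted p = 0.0115), and Clk1, its paralog, 162 ± 30.8 and 86.5 ± 12.2 CPM (0.90, adjusted p = 0.0170). Srpk1, the cytoplasmic SR kinase, had 102 ± 8.84 and 67.2 ± 6.33 CPM (0.61, adjusted p = 0.0170), Ccnl1, cyclin L1, 54.9 ± 11.4 and 20.3 ± 5.92 CPM (1.44, adjusted p = 0.0226) and Cdk11b, its kinase partner, 60.5 ± 2.33 and 34.0 ± 3.95 CPM (0.83, adjusted p = 0.0131). Clk4 and Ccnl1 also rose in 8wk STZ against 4wk STZ (log2 fold changes 1.45 and 2.09, adjusted p = 0.0164 and 0.0166).

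Among 65 tested of 67 other regulators, 2 rose and 2 fell in 8wk STZ against Control (median 0.041): Srsf2 (196 ± 41.2 against 34.1 ± 2.33 CPM, log2 fold change 2.52, adjusted p = 0.000392) and Bclaf1 (126 ± 10.2 against 72.0 ± 1.66 CPM, 0.81, adjusted p = 0.0155) rose, and the poly(C)-binding genes Pcbp4 (12.7 ± 0.688 against 31.8 ± 5.57 CPM, -1.33, adjusted p = 0.00314) and Pcbp2 (48.6 ± 8.25 against 71.5 ± 0.630 CPM, -0.56, adjusted p = 0.0492) fell. Of 56 core spliceosome genes, Snrnp70, a U1 protein, rose (75.3 ± 13 against 48.2 ± 2.71 CPM, log2 fold change 0.64, adjusted p = 0.0453) and Sf3a1, a U2 protein, fell (66.5 ± 6.02 against 114 ± 26.6 CPM, -0.78, adjusted p = 0.0449), with a median of 0.024. At 4 weeks no gene of these lists was called, with medians of 0.044, 0.016 and -0.00907 in the order given here. Between the times, 1 of the other regulators (Srsf2, log2 fold change 2.29) and no core spliceosome gene was called.

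The authors' deposited table compares both STZ groups with Control in 14475 genes, 68 of them members, with the same counts. In the authors' deposited table, 8 members had an FDR below 0.05 for 8wk STZ, all higher, against 7.29% of its genes: Hnrnpdl, Rbm25, Rbm5, Rbm39, Srsf5, Srsf11, Hnrnph3 and Srsf7. In the authors' deposited table the FDR was 0.000161 for Hnrnpdl and 0.0479 for Srsf7, and no member passed for 4wk STZ, against 0.801% of its genes. The 7 beside Hnrnpdl did not pass the quasi-likelihood test.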

How the data were processed

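RNA of sorted retinal microglia was sequenced from 10 mice: 4 in 8wk STZ, 3 in 4wk STZ and 3 in Control. Full-length cDNA came from 1.0-2.0 ng of total RNA per the labels' protocols, with a SMARTer kit, which does not mark strand. Per the submitters' processing notes, bcl2fastq, STAR, Subread, featureCounts, Salmon, edgeR, limma and GRCm38 were used. Not given in the sources used here are the step each served, the strand setting and the handling of multiply mapped reads. The authors deposited raw counts per gene as whole numbers. The authors' second table gives log2 fold change, log2 CPM, a likelihood ratio score, p-value and FDR per the file headers, and was only set beside the results.

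Of 55774 entries, 287 repeated an identifier and were dropped. Here counts were scaled by TMM factors and filtered with filterByExpr by group, leaving 18957 genes. They were fitted with edgeR 4.0.16 (R 4.3.3) as 3 group means, leaving 7 residual degrees of freedom (biological coefficient of variation 0.564). The robust quasi-likelihood test was used with Benjamini-Hochberg adjustment over all genes tested, and genes with an adjusted p below 0.05 were called. CPM is on the TMM scale and RPKM divides it by GENCODE vM21 exonic length. The fit was tested on simulated data for 8wk STZ against Control, with changes put into the more abundant genes. It called 54 of 100 genes changed 2-fold and 93 of 100 changed 4-fold, and 7 unchanged genes. Changes of 2-fold or less can therefore be missed. Library totals ran from 33266838 to 62903489 reads, and their number limits the precision of genes with few reads. Alternatives were other scalings, filters and tools (DESeq2 1.42.0, limma 3.58.1), single libraries left out, the 2 groups alone and a replicate block.

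The members, gene lists and named genes were chosen with earlier results of these data known. Named were called members, per comparison the 8 with the smallest p, per family the 3 with the highest mean log2 CPM, members that failed the filter, Rbm3 and the neuronal CELF genes, and up to 5 called genes of each other list. Members named only for being abundant are given in part, and further members are given as values and were chosen after their values were seen. Promoters are from RefSeq (GRCm38.p6).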

Additional observations from a re-analysis of the deposited data

Results flagged for a closer look

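In the group of 4 8wk STZ libraries, 3 members had 1 library far from the other 3, all at levels near 0. Mbnl3 was at 0.789 CPM in 8wk STZ 4, Srsf12 at 0.381 CPM in 8wk STZ 1 and Rbm24 at 0.0336 CPM in 8wk STZ 4. Chance marks about 1 in 20 groups of normally distributed values in this way, a rate that does not hold for counts near 0. Rbm24, for one, had 2 reads in 8wk STZ, all in 8wk STZ 4, which sets that library apart by itself. Only the 38 named members were looked at, and these 3 were named because they failed the filter. Hnrnpdl differed between the STZ times by a log2 fold change of 0.98 (adjusted p = 0.0439, edgeR's quasi-likelihood test), with 4 of 4 8wk STZ libraries above all 4wk STZ libraries. That call was lost without any one of the 10 libraries.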

How the results depend on the processing

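Calls of members changed with the tool and the filter, and so did calls over all genes, whose share stands in brackets. For 8wk STZ against Control the 1 member called by edgeR's quasi-likelihood test (2.37%) became 3 with library totals (2.84%), 6 with no filter (1.39%), 3 with a minimum of 1 CPM in 3 libraries (4.04%), 10 with DESeq2 (7.65%), 6 with the likelihood ratio test (6.15%), 3 with limma-voom (3.19%), 3 without Control 3 and 4wk STZ 3 (1.39%) and 3 with the 2 groups alone (2.56%). The 10 with DESeq2 were 9 higher and 1 lower, and 2 members had no adjusted p. Between the times the 1 (0.918%) became 2 with DESeq2 size factors (0.955%), 3 with upper-quartile scaling (1.15%), 4 with no filter (0.764%), 4 with the 1 CPM minimum (2.04%), 8 with DESeq2 (5.30%; 3 members had no adjusted p), 6 with the likelihood ratio test (4.00%), 2 with limma-voom (1.1%), and 0 both without Control 3 and 4wk STZ 3 (0.0303%) and with the 2 groups alone (0.553%). With the replicate block it was 0 in both comparisons (0.232% and 0%), but correlations of same-numbered libraries ran from -0.0297 to 0.0348, so the numbers do not pair the animals. With each of the 10 libraries left out in turn, the count was 0 to 3 for 8wk STZ against Control (1.04 to 2.30%). The 3, of 73 members tested, came without 4wk STZ 3 (2.30%). Between the times the count was 0 to 1 (0.0647 to 0.586%). Leaving out libraries of the group outside a comparison was added after the data were seen. For 4wk STZ against Control the count was 0 in every setting (0 to 1.66%).

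The members' median log2 fold change for 8wk STZ against Control was 0.15 with library totals, -0.00315 with upper-quartile scaling, 0.088 with the replicate block, 0.086 without Control 3 and 4wk STZ 3, and 0.031 to 0.098 without single libraries. Between the times it was 0.11 with library totals, -0.035 with upper-quartile scaling, 0.081 with limma-voom, 0.066 with the replicate block and -0.011 to 0.065 without single libraries. For 4wk STZ against Control it ran from 0.017 to 0.073 without single libraries. These medians are listed where they moved by more than 0.0291, the SD of library medians pooled within groups. That spread was chosen after the data were seen, in place of the SD of the first-named group's libraries alone (0.0391, 0.00399 and 0.0904 in the 3 comparisons). With the first spread 6, 12 and 0 of 21 settings each had moved, and with the pooled one 8, 2 and 8.

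In 8wk STZ against Control, 7 named members changed sign in some setting. Under library totals the log2 fold changes were 0.037 for Srsf10, 0.029 for Rbm3. Under upper-quartile scaling the log2 fold changes were -0.031 for Rbm17, -0.013 for Hnrnpf, -0.022 for Tra2b, -0.021 for Hnrnpm. Under a replicate block the log2 fold changes were -0.0050 for Hnrnpf, 1.18 for Celf6. Under the removal of Control 3 and 4wk STZ 3 the log2 fold changes were -0.14 for Rbm17, -0.059 for Hnrnpf. With single libraries left out they ran from -0.14 to 0.13 for Rbm17, -0.058 to 0.092 for Hnrnpf, -0.12 to 0.023 for Srsf10, -0.064 to 0.086 for Hnrnpm, -0.20 to 0.0041 for Rbm3, -1.58 to 1.21 for Celf6. In 4wk STZ against Control, 11 named members changed sign in some setting. Under library totals the log2 fold changes were 0.0055 for Rbm47. Under upper-quartile scaling the log2 fold changes were 0.0060 for Rbm47. Under a replicate block the log2 fold changes were -0.36 for Celf6. Under limma-voom the log2 fold changes were -1.01 for Celf6. Under the removal of Control 3 and 4wk STZ 3 the log2 fold changes were -0.044 for Celf2. With single libraries left out they ran from -0.15 to 0.081 for Hnrnpdl, -0.029 to 0.37 for Rbm5, -0.39 to 0.00081 for Srsf7, -0.052 to 0.11 for Celf2, -0.098 to 0.13 for Mbnl2, -0.16 to 0.10 for Rbm47, -0.027 to 0.19 for Srsf3, -0.11 to 0.10 for Tra2b, -0.11 to 0.32 for Tra2a, -0.0026 to 0.20 for Hnrnpk, -3.29 to 2.38 for Celf6. In 8wk STZ against 4wk STZ, 8 named members changed sign in some setting. Under library totals the log2 fold changes were 0.076 for Rbm44, 0.045 for Celf1, 0.022 for Celf4, 0.085 for Tra2b, 0.065 for Hnrnpa2b1, 0.017 for Hnrnpm. Under no filter on low counts the log2 fold changes were 0.022 for Tra2b, 0.0018 for Hnrnpa2b1. Under a replicate block the log2 fold changes were 0.22 for Celf4, 1.54 for Celf6. Under limma-voom the log2 fold changes were 0.87 for Celf6. Under the removal of Control 3 and 4wk STZ 3 the log2 fold changes were -0.054 for Srsf11. With single libraries left out they ran from -0.053 to 0.27 for Srsf11, -0.58 to 0.64 for Rbm44, -0.12 to 0.077 for Celf1, -0.35 to 0.19 for Celf4, -0.073 to 0.14 for Tra2b, -0.055 to 0.047 for Hnrnpa2b1, -0.19 to 0.013 for Hnrnpm, -1.76 to 2.26 for Celf6. Over all settings of the named members that were tested, 1856 kept direction and side of the threshold, 55 passed it newly, 21 no longer passed and 71 changed sign. No member whose sign changed was called in that comparison with the settings first used. The causes were not tested. Depth limits Rbm44, Celf6 and the members that failed the filter, which rest on few reads in 1 or a few libraries.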
